A study of Mus musculus with 2 samples.

Results

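The genes described here code for proteins of the red cell surface, most of which carry blood group antigens in human. They are *Rhd*, *Rhag*, *Kel*, *Gypc*, *Ermap*, *Icam4*, *Aqp1* and *Slc14a1*, 8 of the 21938 protein-coding genes of the annotation, and were chosen by name, as genes of this function. Every DNase-seq peak and footprint in the body of such a gene or within 50 kb of any of its annotated transcript starts was taken. That gave 96 of 76130 peaks and 236 of 151079 footprints in replicate 1, and 147 of 73852 peaks and 489 of 230992 footprints in replicate 2. Peaks of the 2 replicates that overlapped by at least 1 bp were joined, which made 160 regions.

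DNase-seq maps DNA that DNase I can cut, and a footprint is a short stretch inside cut DNA that is cut less than its surroundings. Both libraries came from the liver of mouse embryos of 13.5 days on a C57BL/6N,129 background, labelled as WT with an A85 YAC present in multiple copies. The labels number the libraries as biological replicates 1 and 2. They do not say what that YAC carries, sex was not collected, and both replicates have the same donor label. There is 1 group and no control sample, so no test was possible, and each value below is given for replicate 1 and then for replicate 2.

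Red cell precursors make up much of the liver at this stage of development. They switch on surface proteins in the course of maturation, largely under the GATA1 and KLF1 transcription factors, which bind GATA sequences and CACCC or related GC-rich sequences. Rhd and Rhag sit together in the Rh complex, glycophorin C fastens the membrane to its skeleton, and Kel is a membrane-bound protease. Ermap and Icam4 belong to the immunoglobulin superfamily, and Aqp1 and Slc14a1 carry water and urea across the membrane.

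All 8 genes had a promoter region open in both replicates, that is, a region with peaks of both within 1 kb of a start, against 58.4% of all protein-coding genes. All 8 also had at least 1 distal region open in both, more than 1 kb from every protein-coding start, against 72.1% of all genes. The median was 4.5 distal regions per member, from 2 at *Rhag* and *Slc14a1* to 9 at *Aqp1*, and 2.00 per gene over all genes. The levels at the promoters were no higher than over all genes. The strongest promoter region of each member had a median value of 5.71 in replicate 1 and 3.33 in replicate 2, against 5.96 and 5.05 over all genes with such a region. Values are the authors' own peak values, whose normalization is not stated.

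The DNA around the annotated 5′ ends of the *Rhd*, *Rhag*, *Kel*, *Ermap*, *Icam4* and *Aqp1* genes is shown because their peaks lay over these bases, and because GATA letters stood in all of these windows but that of *Aqp1*. Each line runs 5′ to 3′ on the gene's own strand, from 150 bases before the 5′ end through the first 50 bases of the gene, in build GRCm38.p6 (mm10). Capitals mark bases inside footprints of both libraries. The windows are chr4:134864386-134864585 (+ strand) for *Rhd*, chr17:40810976-40811175 (+) for *Rhag*, chr6:41704290-41704489 (− strand) for *Kel*, chr4:119189962-119190161 (−) for *Ermap*, chr9:21029223-21029422 (+) for *Icam4* and chr6:55336282-55336481 (+) for *Aqp1*.
Rhd start: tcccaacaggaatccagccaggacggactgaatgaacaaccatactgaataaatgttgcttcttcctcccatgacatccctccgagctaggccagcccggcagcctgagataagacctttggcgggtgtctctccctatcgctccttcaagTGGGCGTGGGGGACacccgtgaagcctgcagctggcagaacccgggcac
Rhag start: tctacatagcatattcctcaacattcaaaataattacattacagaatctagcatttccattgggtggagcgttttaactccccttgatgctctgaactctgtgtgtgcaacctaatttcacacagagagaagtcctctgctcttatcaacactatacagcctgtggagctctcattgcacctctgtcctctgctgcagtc
Kel start: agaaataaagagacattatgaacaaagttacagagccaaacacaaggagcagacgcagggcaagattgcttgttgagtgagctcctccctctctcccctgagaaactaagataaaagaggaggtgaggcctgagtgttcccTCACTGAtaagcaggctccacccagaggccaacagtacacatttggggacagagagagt
Ermap start: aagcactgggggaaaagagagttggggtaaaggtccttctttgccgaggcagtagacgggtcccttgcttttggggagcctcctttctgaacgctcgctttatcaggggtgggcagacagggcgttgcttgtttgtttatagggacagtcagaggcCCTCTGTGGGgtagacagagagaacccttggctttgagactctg
Icam4 start: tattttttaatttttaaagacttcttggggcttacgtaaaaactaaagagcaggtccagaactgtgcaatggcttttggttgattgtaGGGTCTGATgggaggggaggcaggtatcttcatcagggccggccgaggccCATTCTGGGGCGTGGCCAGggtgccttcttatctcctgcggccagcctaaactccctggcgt
Aqp1 start: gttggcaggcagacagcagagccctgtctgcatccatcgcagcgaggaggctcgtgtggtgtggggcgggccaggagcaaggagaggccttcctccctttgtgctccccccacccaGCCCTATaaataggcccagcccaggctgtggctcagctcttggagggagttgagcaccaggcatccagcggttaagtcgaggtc

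Searched on both strands, AGATAA stood 43 bases before the 5′ end of *Rhd* and 42 bases before that of *Kel*, and its reverse TTATCT began 16 bases into *Icam4*. TGATAA, which was added to the search after these lines had been read, was found 5 bases before the 5′ end of *Kel*. Its reverse TTATCA was found 8 bases before the 5′ end of *Rhag* and 51 bases before that of *Ermap*. AGATAA was present in the window of 3 of the 8 members (37.5%), against 5.90% of the same 200-base windows of all protein-coding genes and 2.75% of those of the 9244 genes whose 5′ end lay in a region of both replicates. With TGATAA counted too, a choice fitted to these same windows, the count was 5 of 8, against 10.2% and 4.49%. The windows of *Gypc*, *Aqp1* and *Slc14a1* held neither. These matches describe letters and not binding, and only the TGATAA of *Kel* touched a footprint of both libraries, with 3 of its bases in capitals.

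A second run of letters lay inside such footprints. GGGCGTGG, the reverse of CCACGCCC and also added after the lines had been read, was wholly in capitals at the starts of *Rhd* (from 2 bases past the 5′ end) and *Icam4* (from 5 bases before it). The same letters on either strand were in 9.55% of the windows of genes with an open 5′ end. They were in 6 of the 121 shared footprints of the members (4.96%), against 2.58% of all 77646 footprints that overlapped between the replicates. All of these 6 but the *Rhd* and *Icam4* ones lay at starts of other genes, namely *Tmem50a*, *Svbp* and *AU022252* with *P3h1*. CCACACCC, the KLF1 letters first searched, was in none of the 8 windows, against 3.08% of all genes. GGGGCGG on either strand was in 2 of the 8 windows, those of *Aqp1* and of *Gypc*, which is not shown. It was in 25.8% of the windows of all genes and 42.7% of those of genes with an open 5′ end. In the *Aqp1* window the only shared footprint did not cover these letters.

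**Figure D1:**
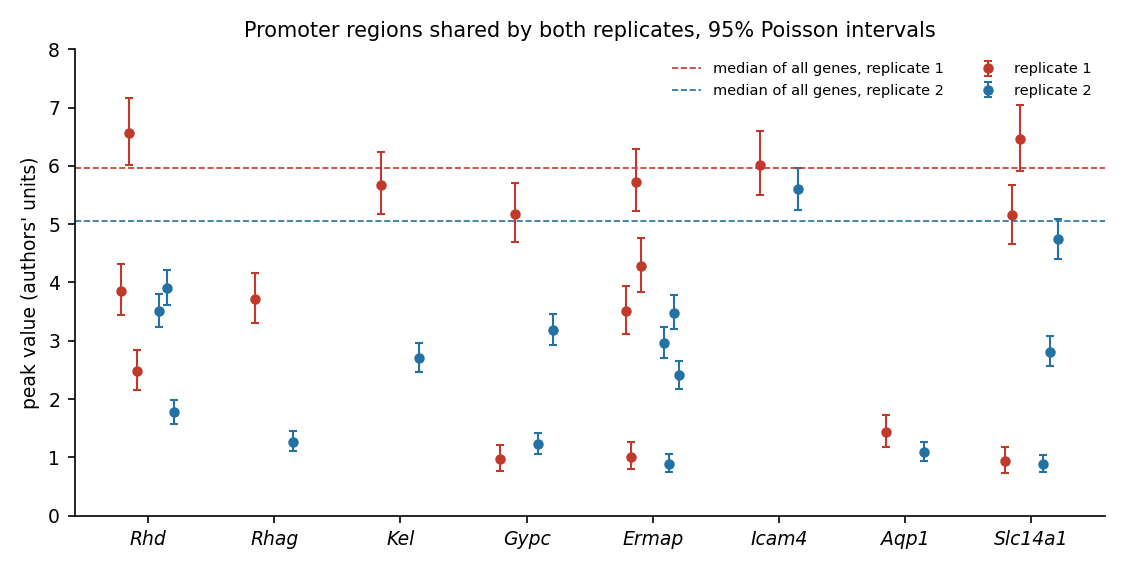
Peak values in the authors' units (vertical axis) of every promoter region of the 8 genes open in both replicates, with replicate 1 in red on the left and replicate 2 in blue on the right of each gene and bars for 95% Poisson intervals. Dashed lines are the medians over all genes of the strongest such region, 5.96 and 5.05. The only regions of *Rhag* and *Kel* in replicate 2 and of *Aqp1* in both lie far under them. So do the weakest regions of *Rhd*, *Gypc*, *Ermap* and *Slc14a1*.

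Ranked by their strongest promoter region, the genes ran in replicate 1 from *Rhd* (6.57, with a 95% Poisson interval of 6.02 to 7.16) through *Slc14a1* (6.46), *Icam4* (6.02), *Ermap* (5.73), *Kel* (5.68) and *Gypc* (5.18) to *Rhag* (3.72) and *Aqp1* (1.43). Each of the first 6 overlapped its neighbour's interval, and *Rhag* and *Aqp1* overlapped none. In replicate 2 the order was *Icam4* (5.60), *Slc14a1* (4.74), *Rhd* (3.91), *Ermap* (3.48), *Gypc* (3.18), *Kel* (2.71), *Rhag* (1.27) and *Aqp1* (1.10). There *Icam4* and *Slc14a1* stood clear of each other and of the rest, *Rhd*, *Ermap*, *Gypc* and *Kel* overlapped from neighbour to neighbour, and *Rhag* overlapped *Aqp1*.

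The wider setting was checked on marker genes. A shared promoter region was present at 8 of 9 erythroid markers (all but *Alas2*, which had a peak of replicate 2 alone), 2 of 8 hepatoblast markers (*Afp* and *Foxa3*), 0 of 4 macrophage, 1 of 3 megakaryocyte and 1 of 4 endothelial markers. It was present at 0 of 3 kidney and 1 of 3 brain markers, and at 58.4% of all protein-coding genes. The median peak stood for 69 counts in replicate 1 and 126 in replicate 2. In a bulk tissue such as this, fewer cells of a type and less open chromatin per cell cannot be told apart.

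**Figure D2:**
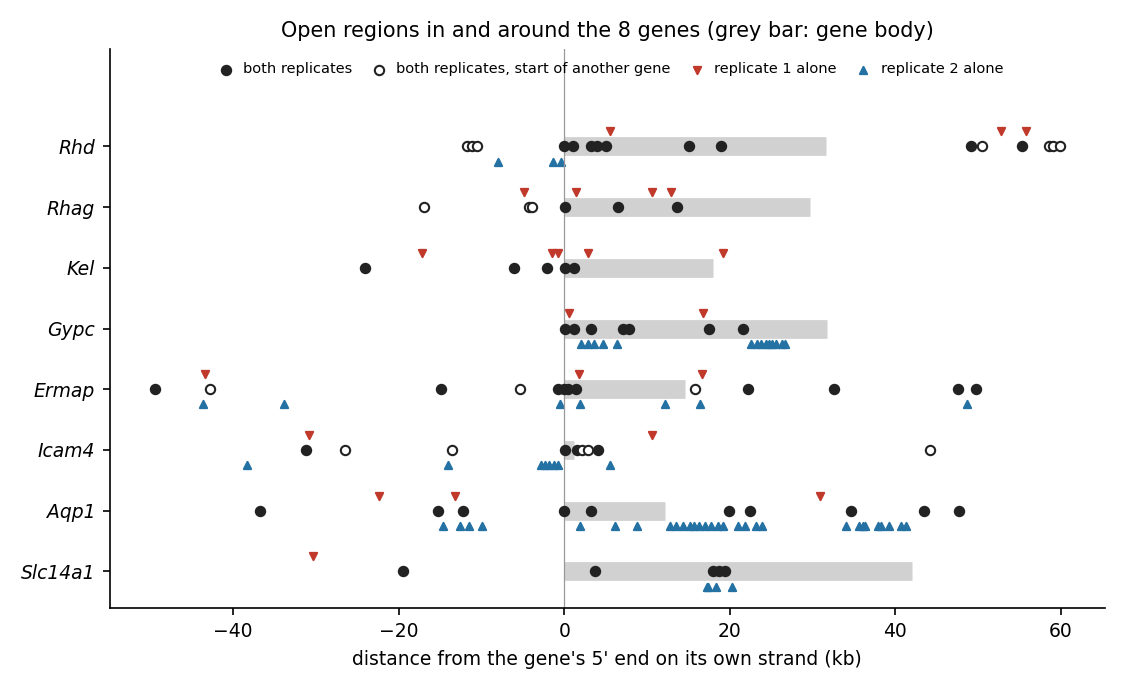
Position of all 160 regions relative to the 5′ end of each gene (horizontal axis, kb on the gene's own strand), 1 row per gene, with the gene body in grey. Black circles are regions of both replicates (open circles where they lie at the start of another gene), red triangles replicate 1 alone and blue triangles replicate 2 alone; the blue runs lie downstream of *Aqp1* and near the far end of *Gypc*.

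In the Rh complex, *Rhd* codes for the Rh antigen protein and *Rhag* for its partner, a channel for ammonia. *Rhd* (chr4:134864536-134896172) had 3 promoter and 6 distal regions of both replicates. The region over its 5′ end had values of 3.86 and 3.51, and a region 905 bp inside intron 1 was higher, at 6.57 and 3.91. The highest distal region of any member in replicate 1 lay 4905 bp from the start, also in intron 1, with 9.70 (95% Poisson interval 9.02 to 10.4) and 4.35 (4.03 to 4.68). Those values were above 99.1% and 96.6% of all distal regions of both replicates. A further start inside the gene, 15274 bp downstream, had a weaker region 150 bp away with 2.48 and 1.77. The strongest regions in the *Rhd* window belonged to the neighbours *Maco1*, *Tmem50a* and *Rsrp1*, with up to 17.8 and 15.4 at the *Maco1* start.

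*Rhag* (chr17:40811126-40840754) had 1 promoter region, with 3.72 (3.31 to 4.17) in replicate 1 and 1.27 (1.11 to 1.46) in replicate 2. Its 2 distal regions, both in intron 1, were weak, at 0.987 and 0.767 for the first and 1.13 and 0.598 for the second, and neither was shared in the authors' shorter peak lists. Outside the gene, a region 4146 bp before the 5′ end had 4.40 and 1.48. The annotation gives that place a start of *Crisp2*, a gene known from testis, and another *Crisp2* start, under a region 16906 bp away, had 3.99 and 3.49. The *Rhag* promoter and the nearer *Crisp2* region leaned to replicate 1 by nearly the same ratio, 2.92 and 2.98, while the farther *Crisp2* region had a ratio of 1.14. The median ratio over all 45831 shared regions was also 1.14, and 98.2% of them had a lower ratio than the *Rhag* promoter.

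The *Rhd* intron 1 region (chr4:134869441-134869720, + strand) is shown because GATA letters lie in 2 of its 3 shared footprints. Capitals again mark bases in footprints of both libraries.
Rhd intron 1: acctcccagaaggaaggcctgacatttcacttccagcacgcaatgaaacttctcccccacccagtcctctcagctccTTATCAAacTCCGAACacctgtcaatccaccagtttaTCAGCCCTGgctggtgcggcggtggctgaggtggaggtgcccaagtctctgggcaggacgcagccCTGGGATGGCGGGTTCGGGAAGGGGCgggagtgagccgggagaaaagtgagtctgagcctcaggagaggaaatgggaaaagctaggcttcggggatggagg

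TTATCA occurred in it at 4982 and at 5016 bases from the 5′ end, the first wholly in capitals and the second with 3 bases in capitals. Overlapping footprints of the 2 libraries, joined, spanned 27 bp around the first and 12 bp over part of the second.

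*Kel* codes for the Kell protease, which in human cleaves big endothelins. The gene (chr6:41686330-41704339) had its promoter region over the 5′ end, at 5.68 (5.17 to 6.23) and 2.71 (2.47 to 2.97), and 4 distal regions. The strongest distal region lay over exon 4, 1079 bp from the start, with 3.76 and 2.91. The next lay 2002 bp upstream, with 3.33 and 1.80. The remaining upstream regions, 5851 bp and 23962 bp away, were near 1 in each replicate, at 1.11 and 0.893 and at 1.000 and 1.06. None of the 4 further starts annotated 5171 bp or more inside the gene had a peak of either replicate within 2 kb. *Kel* and *Rhag* had no region of replicate 2 alone, and 5 and 4 of replicate 1 alone.

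The *Kel* upstream region (chr6:41706341-41706600, − strand) is shown because it holds AGATAA together with TGACTCA, the letters searched for NFE2.
Kel upstream: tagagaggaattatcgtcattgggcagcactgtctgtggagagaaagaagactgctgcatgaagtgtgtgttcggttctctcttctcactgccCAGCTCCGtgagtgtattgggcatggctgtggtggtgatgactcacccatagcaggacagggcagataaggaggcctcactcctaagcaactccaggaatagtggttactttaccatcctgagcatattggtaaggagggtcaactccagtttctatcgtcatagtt

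AGATAA began 2105 bases and TGACTCA 2130 bases before the 5′ end, and the single shared footprint, in capitals, covered neither. AGATAA was in 15.9% of the 200-base centres of all distal regions of both replicates and in 8 of the 37 of the members (21.6%). TGACTCA or its reverse was in 5.51% of all and in 2 of the 37 (5.41%), a share near that of all. The other of these 2 was a *Gypc* intron 1 region with 6.67 and 2.94, which held AGATAA letters as well.

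*Ermap* codes for an erythroblast membrane protein of the butyrophilin family, the carrier of the Scianna antigens in human. Its starts spread over 1264 bp (gene at chr4:119175457-119190011), and 4 promoter regions were open in both replicates. The one over the 5′ end had 5.73 and 3.48, one 650 bp upstream of it 4.28 and 2.41, one next to the innermost start 3.51 and 2.97, and the last 1.01 and 0.893. The gene window held 6 distal regions, of which 0 were nearest to an *Ermap* start. The strongest of them was centred 47620 bp downstream with 4.48 and 4.19, above 93.8% and 96.3% of all distal regions. The strongest values in the window were at the shared start of *AU022252* and *P3h1*, 17.4 and 14.3.

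A pair of *Ermap* sequences is shown because they hold the only AGATAA matches in shared footprints of any member, the upstream promoter region (chr4:119190661-119190900, − strand) and the strongest distal region (chr4:119142301-119142480, − strand of the chromosome).
Ermap upstream: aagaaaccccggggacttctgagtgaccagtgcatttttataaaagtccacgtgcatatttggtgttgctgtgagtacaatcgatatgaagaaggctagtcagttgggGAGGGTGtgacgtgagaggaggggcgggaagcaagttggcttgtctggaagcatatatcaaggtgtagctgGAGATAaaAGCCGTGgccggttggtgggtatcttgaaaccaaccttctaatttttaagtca
Ermap distal: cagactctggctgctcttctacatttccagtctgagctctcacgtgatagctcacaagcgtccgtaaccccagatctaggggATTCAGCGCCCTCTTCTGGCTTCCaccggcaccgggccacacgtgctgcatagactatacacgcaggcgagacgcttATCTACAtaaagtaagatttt

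In the upstream region AGATAA began 709 bases before the 5′ end with 5 of its bases in capitals, and in the distal region TTATCT had 4 bases in capitals. Over all members, 2 of 121 shared footprints held AGATAA within 5 bp (1.65%, 95% Wilson interval 0.454% to 5.83%), against 1.18% of all shared footprints. With TGATAA counted too, a choice made after sequences had been read, the members had 7 (5.79%, 2.83% to 11.5%), against 1.92% of all. The intervals take footprints as independent, which those of a single region are not, so the intervals do not test a difference from all footprints. The 5 with TGATAA were 2 in the *Rhd* intron, 1 at the *Kel* start and 2 in *Gypc*.

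*Icam4*, the carrier of the LW antigens in human, is an adhesion molecule that binds integrins on macrophages. The gene is 1223 bp long (chr9:21029373-21030595) and lies among *Icam1* and *Icam5*. Its promoter region had 6.02 (5.50 to 6.59) and 5.60 (5.25 to 5.97) and held 6 shared footprints, the most of any promoter region of the members. The starts of *Icam1*, with 1.18 and 1.13, and of *Icam5*, with at most 1.47 and 2.05, were weaker. Farther off in the window, the *Mrpl4* start had 6.05 and 5.85, above the *Icam4* promoter in each replicate. The *Fdx1l* start had 4.10 and 3.90. Between the *Icam4* and *Icam5* genes, a region centred 1528 bp past the *Icam4* 5′ end had 6.42 and 4.48. Another, over an *Icam5* exon and centred 4028 bp past the *Icam4* 5′ end, had 6.57 and 6.15. Both stood above 96.8% or more of all distal regions in each replicate, and both were nearest to an *Icam5* start by position. The promoter region lay 0.08 below the median of all regions on the log2 scale of the ratio of replicate 1 to replicate 2.

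*Aqp1*, the water channel that carries the Colton antigens in human, is expressed in kidney, endothelium and other tissues as well as red cells. Its promoter region (chr6:55336324-55336464) had 1.43 (1.18 to 1.72) and 1.10 (0.945 to 1.27), above only 18.3% and 13.2% of the strongest promoter regions of all genes. The shorter peak lists of the authors do not hold it in both replicates. Some distal regions were stronger than the promoter. One in intron 1, 2969 bp from the start, had 3.16 and 2.28, and one 11872 bp upstream had 2.77 and 2.07. Another, 15158 bp upstream, was close to the promoter at 1.38 and 1.24, and one in the *Mindy4* gene was lower, at 0.797 and 0.682. Of its 9 distal regions 4 were nearest to its own start.

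The intron 1 region of *Aqp1* (the central 300 bp, chr6:55339461-55339760, + strand) is shown because it holds AGATAA at 2 places with CAGCTG between them.
Aqp1 intron 1: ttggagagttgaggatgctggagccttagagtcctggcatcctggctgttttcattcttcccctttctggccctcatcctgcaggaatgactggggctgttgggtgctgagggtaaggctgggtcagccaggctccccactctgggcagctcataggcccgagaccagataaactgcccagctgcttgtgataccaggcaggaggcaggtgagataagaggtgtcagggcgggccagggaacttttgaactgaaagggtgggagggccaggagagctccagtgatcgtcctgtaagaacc

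AGATAA began 3195 and 3240 bases and CAGCTG 3207 bases past the 5′ end, and no base was in footprints of both libraries. CTG followed by GATAA after 7 or 8 bases, the only spacings searched for joint GATA1 and TAL1 sites, was not in these 300 bases. It stood in the 200-base centres of 3 of the members' 37 distal regions (8.11%), all 3 near *Aqp1*, against 2.82% of all distal regions. With either GATA form, 15 of the 37 distal centres (40.5%) and 7 of the 16 promoter centres (43.8%) of the members held a match, against 24.1% and 7.75% of all. TGATAA was added after some of these same sequences had been read, so these shares are partly fitted to them. With AGATAA alone 8 of the 37 distal centres held a match (21.6%), against 15.9%. For the promoter centres it was 3 of the 16 (18.8%), against 4.90%.

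*Gypc* codes for glycophorin C, the carrier of the Gerbich antigens in human. The gene lies at chr18:32528322-32560034 on the − strand. Its promoter region over the 5′ end had 5.18 (4.69 to 5.70) and 3.18 (2.92 to 3.46), the peak of replicate 1 lying within a wider peak of replicate 2. Intron 1 held 5 distal regions of both replicates, all of them nearest to *Gypc*. The strongest, centred 17443 bp from the 5′ end, had 8.32 (7.69 to 8.98) and 3.13 (2.86 to 3.41), above 98.7% and 93.1% of all distal regions. It held 5 shared footprints, and 2 of these held TGATAA letters. The next, centred 7843 bp from the 5′ end, had 6.67 and 2.94. All 5 were higher in replicate 1, and their log2 ratios of replicate 1 to replicate 2, less the median over all shared regions, ran from 0.40 to 1.22. Its internal start, 24616 bp downstream, had peaks of replicate 2 alone, the one over it at 0.326.

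*Slc14a1* codes for the urea transporter that carries the Kidd antigens in human. It differed from the other members in where it was open: the annotated 5′ end (position 78142119 of chromosome 18) had no region within 3 kb, and the nearest, 3559 bp away, had 3.18 and 3.45. The open starts were 18693 and 18788 bp inside the gene, under a region of 5.15 (4.66 to 5.68) and 2.81 (2.56 to 3.08). A region 635 bp upstream of them had 6.46 and 4.74. With only 5′ ends counted, 7 of the 8 members had a shared promoter region, all but *Slc14a1*. The other distal region of the gene lay in an intron of its neighbour *Slc14a2*, the urea transporter of the kidney, with 1.30 and 1.06, and *Slc14a2* itself had no promoter peak in either replicate.

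**Figure D3:**
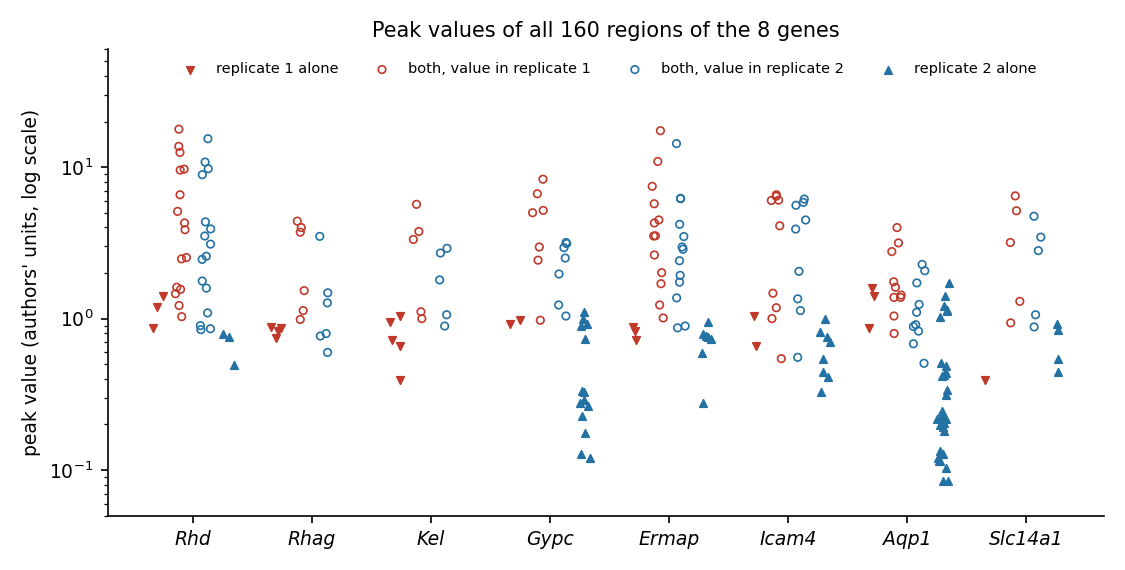
Peak values (vertical axis, authors' units, log scale) of all 160 regions by gene, with regions of replicate 1 alone, regions of both with their value in replicate 1 and then in replicate 2, and regions of replicate 2 alone, from left to right. Regions of replicate 2 alone reach down to 0.0845 at *Aqp1* and 0.121 at *Gypc*, below every region of both.

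The replicates agreed on 71 of the 160 regions (44.4%), against 46.2% of all merged regions, while 23 were of replicate 1 alone and 66 of replicate 2 alone. The 71 were 16 promoter regions of members, 18 at starts of other genes and 37 distal. Of the 37 distal regions 14 lay in the body of the member, 10 upstream and 13 downstream, and 20 were nearer to a start of the member than to that of another gene. Shared regions were the strong ones, with medians of 3.18 in replicate 1 and 2.05 in replicate 2. The medians were 0.873 for regions of replicate 1 alone and 0.429 for regions of replicate 2 alone. Over all merged regions the order was the same, with 1.44 and 1.24 for shared regions. Those of replicate 1 alone had 0.494 there and those of replicate 2 alone 0.392. *Rhd* had the largest share in both, 16 of 22 (72.7%, 95% Wilson interval 51.8% to 86.8%), and *Aqp1* the smallest, 10 of 43 (23.3%, 13.2% to 37.7%). *Gypc* followed with 7 of 23 (30.4%, 15.6% to 50.9%). These intervals take neighbouring regions as independent, so they do not test a difference between genes. Of the 43 at *Aqp1*, 23 were regions of replicate 2 alone downstream of the gene. Of the 16 at *Rhd*, 7 lay at starts of other genes.

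Regions of replicate 2 alone lay close together at 3 of the genes. Downstream of *Aqp1* there were 23 of them among 29 regions, with values of 0.0845 to 0.483 and a median of 0.205, and all 23 were below the median peak of that library, 0.761. At the far end of *Gypc* a run of 9 spanned 4246 bp around the internal start, with 0.121 to 0.332, and upstream of *Icam4* a run of 5 spanned 2300 bp, with 0.326 to 0.700. Read as whole multiples of the library's step, the values stood for counts of 20 to 55 in the *Gypc* run and 54 to 116 in the *Icam4* run. In none of the 23, 9 and 5 did replicate 1 have a base under an FDR of 0.05. Over all members, 5 of the 66 regions of replicate 2 alone (7.58%) held such a base in replicate 1, against 9.84% of all regions of that kind, and 4 of the 23 of replicate 1 alone (17.4%) held one in replicate 2, against 13.3%.

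**Figure D4:**
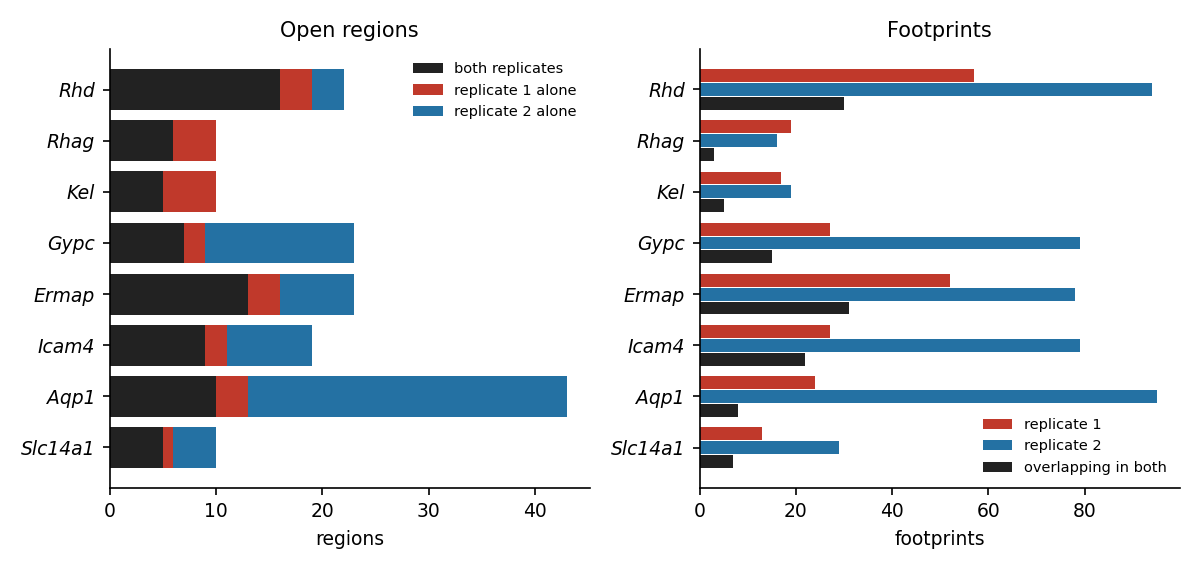
Number of open regions (left, stacked) and of footprints (right, grouped) per gene, in replicate 1, replicate 2 and both. *Aqp1* has 30 regions of replicate 2 alone and *Kel* and *Rhag* have 0, and *Rhd* and *Ermap* have the most overlapping footprints, 30 and 31.

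Footprints overlapped between the replicates at 121 places, 115 of them in shared regions. By gene there were 31 at *Ermap*, 30 at *Rhd*, 22 at *Icam4*, 15 at *Gypc*, 8 at *Aqp1*, 7 at *Slc14a1*, 5 at *Kel* and 3 at *Rhag*. Of the 71 shared regions 52 held at least 1 (73.2%), against 66.4% of all. The *Rhag* promoter had 2 and 3 footprints and no overlap between them. Of the members' footprints, 56.4% of those of replicate 1 overlapped one of replicate 2, against 56.8% of all, and 26.2% of those of replicate 2 overlapped one of replicate 1, against 35.6%. *Aqp1* had 24 footprints in replicate 1 and 95 in replicate 2, and *Gypc* had 27 and 79. In the *Aqp1* run of 12 neighbouring regions of replicate 2 alone there were 0 and 27.

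**Figure D5:**
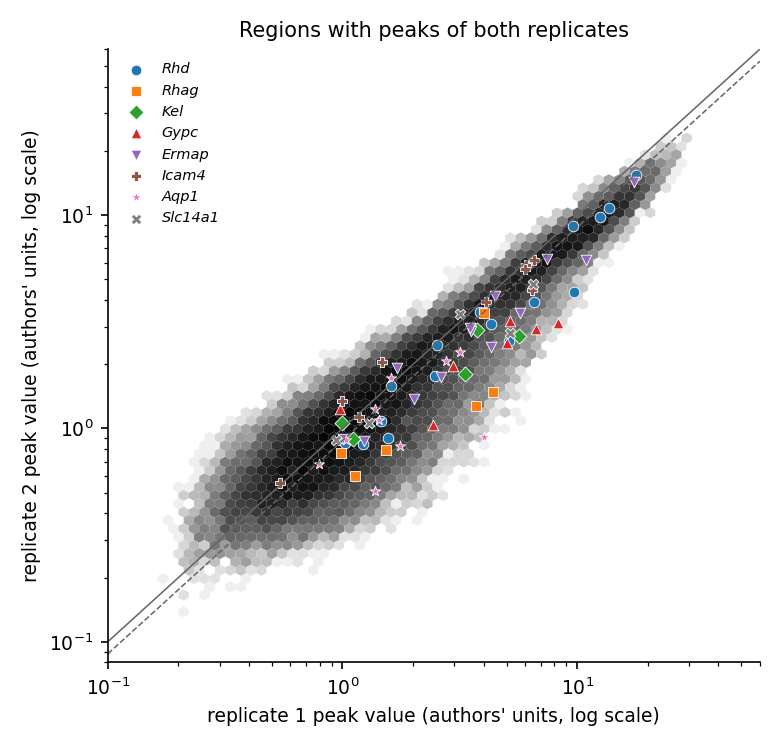
Value in replicate 1 (horizontal axis) and replicate 2 (vertical axis) of every region of both replicates, authors' units, log scales, all regions as grey hexagons (darker where more lie) and the 71 of the members as coloured symbols. The solid line marks equal values and the dashed line the median ratio of 1.14, and 49 of the 71 lie on the replicate 1 side of the dashed line.

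Among the 71 shared regions, 63 were higher in replicate 1 (88.7%), against 64.1% of all 45831. With the all-region median log2 ratio of 0.19 subtracted, the members' median was 0.18, and the SD over all regions was 0.57. By gene the median was 0.81 at *Gypc*, 0.74 at *Rhag*, 0.21 at *Aqp1*, 0.20 at *Rhd*, 0.18 at *Kel*, 0.12 at *Slc14a1*, 0.11 at *Ermap* and -0.13 at *Icam4*. The largest difference was at a distal region centred 22449 bp downstream of the *Aqp1* 5′ end, with 3.99 (3.56 to 4.45) and 0.911 (0.772 to 1.07), a higher ratio than in 99.8% of all shared regions. That region lies among the run of weak replicate 2 peaks. The lowest ratio, 0.717, was at an *Icam5* start beside *Icam4*, with 1.47 and 2.05. The step between values was 0.0127 in replicate 1 and 0.00604 in replicate 2, and the part of this difference in depth in these ratios was not tested.

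Other genes of blood group systems and red cell surface proteins, a list of 32, had a shared promoter region in 27 cases (84.4%), with median values of 5.90 and 4.43 and a median of 4 distal regions. The 5 without were *Abo*, *Fut1*, *Fut2* and *A4galt*, whose products add the sugars of carbohydrate antigens, and *Sema7a*, which had a peak of replicate 2 alone. Other genes for such enzymes had weak shared promoter regions, *B3galnt1* with 0.430 and 0.501 and *Gcnt2* with 0.823 and 0.791. The partners of the members were open: *Xk*, the partner of Kel, had 2.94 and 2.47, and *Slc4a1*, the anion exchanger, 10.1 and 5.05. *Slc4a1*, which was also counted among the erythroid markers, had 19 shared distal regions, the most in the list.

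Relatives of the members that act mainly outside the red cell, a list of 14, had a shared promoter region in 8 cases (57.1%), near the 58.4% of all genes, with median values of 1.32 and 1.59. Their median was 4 distal regions, as in the list of other blood group genes. Some of these regions are those of members: *Icam1* and *Icam5* share the strongest distal region of *Icam4*, and *Slc14a2* that of *Slc14a1*. Among the Rh relatives, *Rhbg* had 0.570 and 0.767 and *Rhcg* 0.823 and 0.881, below *Rhag* in each replicate. Among the aquaporins *Aqp2*, *Aqp4* and *Aqp5* had no promoter peak and *Aqp8* had 4.76 and 3.10, above *Aqp1*. Among the Kel-like proteases *Ece1* had 4.0 and 2.96, *Mme* 0.342 and 0.344, and *Ecel1* no peak.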

How the data were processed

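DNase-seq peaks, FDR values and footprints of 2 libraries of mouse liver were used as deposited. The authors, per the deposited notes, derived peaks and base-wise FDR values from the filtered alignment of each library on mm10, and footprints from the alignment and the FDR values. The deposited peak signal has no stated normalization, and its values were whole multiples of 1 step per library (100% within a tolerance of 0.05 of a step), so that value divided by step was taken as a count with a 95% Poisson interval that covers counting error only. The deposited FDR (a p-value adjusted by the authors) lay under 0.05, and the deposited footprints carry a p-value or FDR of 0.01 throughout. The sources used here name no caller.

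Of the 2 peak lists per library the longer was used. Peaks were joined at an overlap of 1 bp, the value of a region in a replicate was that of its highest peak, and genes and starts came from GENCODE M21. Letters were searched on both strands in footprints extended by 5 bp and in 200-base centres of regions, for 14 patterns and 3 added after sequences had been read. Sequences were read from RefSeq's GRCm38.p6. The named genes are all 8 members, with the other lists counted whole. The members, lists and tests were chosen with earlier results of these data known. Samples form 1 group, so no test was run. The joining and counting steps were tested on simulated data. Versions were Python 3.11.15, numpy 2.4.6, pandas 2.3.3, scipy 1.17.1, pysam 0.24.0 and bedtools 2.31.1.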

Additional observations from a re-analysis of the deposited data

How the results depend on the processing

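The count of members with a shared promoter region stayed at 7 or 8 under every alternative run. It was 7 with the shorter peak lists (without *Aqp1*), with a reciprocal overlap of 50% (without *Gypc*) and with only the 5′ end of each gene (without *Slc14a1*). The 37 distal regions became 23 with a window of 20 kb and 62 with 100 kb, and 20 when only those nearest to a start of the member were counted, a choice made after seeing the data. Without one replicate they numbered 55 to 88, and the 121 shared footprints became 236 to 489, since regions and footprints of a single library then need no partner. The median log2 ratio was 0.37 with no centring and 0.14 to 0.26 under the other alternatives. Shared footprints with GATA letters were 2 for AGATAA and 7 for AGATAA or TGATAA, the wider search being chosen after seeing the data. Of 184 values for single genes, 47 moved by over 1.5 times or lost their call. *Rhag* lost both distal regions with the shorter lists and with the reciprocal overlap of 50%. The 6 of *Rhd* became 3 and 2 under the same alternatives, and the 9 of *Aqp1* became 5 with the shorter lists and 4 within 20 kb. The 6 of *Ermap* became 1 within 20 kb. No paired analysis was possible because there is 1 group. With 2 libraries and no control, nothing here separates a difference between animals from one between libraries.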
